A study of Vitis vinifera with 60 samples.

Results

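The genes described here had higher transcript levels in ripening grape berries of every cultivar than in green berries of any cultivar. They were chosen by their levels. A row qualified when its median over the 5 cultivars was at least 10 FPKM in soft and in harvested berries and the 2 medians lay within 2-fold of each other. FPKM counts sequenced fragments per transcript length and per library size. Of the 29287 rows, 7506 met these conditions. They were ranked by the lowest of the 10 soft and harvest values plus 1, divided by the highest of the 10 pea-sized and touching values plus 1. The first 150 were taken, and 2 of them were left out because the rule excludes their tags or scaffold, which leaves 148 members. The contrast of late with early berries therefore chose the members, and it is described below without a test.

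The berries were Vitis vinifera, from the red-skinned cultivars Sangiovese, Barbera, Negroamaro (also written Negro amaro in the labels), Refosco and Primitivo, all grown in one vineyard in 2011. RNA came from the pericarp, which is the berry without its seeds, at 4 stages: pea-sized, beginning to touch in the bunch, soft, and ripe for harvest. No treatment is named, and 60 libraries were made, as 3 biological replicates of every combination. The table holds one value for each of the 20 combinations, the authors' mean, so the spread between replicate berries and the read depth are unknown. Each SD below is the spread over 5 cultivars, and where 5 values are listed they stand in the order Sangiovese, Barbera, Negroamaro, Refosco, Primitivo. In bulk tissue a change in the RNA of each cell and a change in the share of cells that hold it cannot be told apart.

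The grape berry grows in a pair of phases separated by a lag. At the onset of ripening, called veraison, it softens, takes up sugar, loses acid and, in red cultivars, colours its skin. Many transcripts of the green berry decline then, and others, among them genes of sugar transport, cell wall loosening and pigment formation, are known to rise. No tag of the 29971 could be found in the available list of gene symbols (0 matches), and the authors' table gives tags alone. The members are therefore given by tag, no function is stated for any of them, and the tissue could not be checked against marker genes. The 2 digits after VIT_ in a tag are its chromosome field, 00 being unplaced sequence.

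The harvest columns labelled Negroamaro and Primitivo went against their labels. For each of the 18207 genes tested, the deviation of a harvest column from the mean of the 5 harvest columns was compared with the deviation of each soft column from its own stage mean. For Sangiovese, Barbera and Refosco the correlation across genes was highest with the soft column of the same cultivar, at 0.535, 0.607 and 0.383. The column labelled Negroamaro harvest had 0.439 with Primitivo soft and -0.117 with Negroamaro soft, and the column labelled Primitivo harvest had 0.508 with Negroamaro soft and -0.0654 with Primitivo soft. Genes are not independent replicates, so no p is given. Tests between cultivars and summaries by cultivar that use these columns are given as labelled and exchanged. An exchange cannot alter the choice of members, since the rule uses no cultivar label. Without the 2 columns the rule found 135 of the 148 members.

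The label "switched on" holds strictly for few of the members. Only VIT_06s0004g07790 stayed under 1 FPKM in all 10 early columns and reached at least 10 FPKM in all 10 late ones. Its late values lay between 14.7 and 68.6 FPKM and its early values between 0.0942 and 0.956 FPKM. The early median was under 1 FPKM for 17 members, between 1 and 10 for 51, between 10 and 100 for 59 and at least 100 for 21. A further measure of the green berry was that 62 members stood at 10 FPKM or more in every early column. The members are thus better described as genes raised throughout ripening, from near silence in some and from a sizeable level in others.

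The gap between late and early berries was wide for a minority. The ratio that ranked the members was at least 10 for 13 of them, between 4 and 10 for 20, between 2 and 4 for 50 and under 2 for 65, with a median of 2.19. Because it sets the lowest late value against the highest early one, it is smaller than the change of a typical column. The ratio of the late to the early median, with 1 FPKM added to each, had a median of 6.86 and ran from 1.90 to 2163. At the edge of the list the members VIT_19s0014g00960, VIT_07s0005g01250 and VIT_06s0080g00540 had ranking ratios of 1.474, 1.468 and 1.466. The rows just outside, VIT_03s0038g00590, VIT_16s0022g02230 and VIT_18s0001g03580, had 1.460, 1.458 and 1.444, with no gap at the end of the list.

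VIT_05s0049g00510, on chromosome field 5, had the widest gap, with a ranking ratio of 102.6. Its levels in pea-sized berries were 0.546, 3.01, 7.21, 0.563 and 3.06 FPKM, and in touching berries 0.216, 1.07, 1.85, 0.329 and 3.96 FPKM. In soft berries they were 2024, 1307, 841, 2781 and 2024 FPKM, and at harvest 1703, 2023, 1069, 2648 and 1839 FPKM. All late values were over 100 times the highest early one, and the Negroamaro soft column was the lowest of them.

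VIT_11s0016g04920, on chromosome field 11, reached the higher level. It stood at 2.41, 0.432, 33.8, 1.39 and 11.3 FPKM in pea-sized berries and at 0.111, 0.823, 6.82, 0.646 and 10.4 FPKM in touching ones. It stood at 2490, 8658, 4518, 5944 and 6641 FPKM in soft berries and at 2939, 8615, 6312, 6221 and 7231 FPKM in harvested ones. Sangiovese was lowest and Barbera highest of the 5 cultivars at both late stages, and no late value came near an early one.

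The next 3 members were low in all green columns and far higher in all late ones. VIT_08s0040g01200 had between 118 and 754 FPKM in late columns, against 0.131 to 1.94 FPKM in early ones. VIT_01s0011g03670 had between 279 and 1181 FPKM in late columns, against 0.590 to 6.14 FPKM in early ones. VIT_08s0056g01240 had between 254 and 817 FPKM in late columns, against 1.56 to 5.66 FPKM in early ones. For each of these 3 genes the lowest late value was that of Sangiovese soft berries.

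Of the first 20 members, the remaining ones covered a broad range of abundance. VIT_15s0021g02700 and VIT_01s0146g00260 had late medians of 1314 and 1681 FPKM, against early medians of 3.80 and 10.2 FPKM. VIT_00s0323g00070, VIT_18s0001g11930, VIT_14s0108g00450, VIT_01s0127g00680, VIT_16s0098g01150, VIT_13s0067g02300 and VIT_02s0012g00500 had late medians between 106.2 and 416.7 FPKM. The late medians of VIT_05s0049g02240, VIT_05s0077g01980 and VIT_06s0004g07790 lay between 40.4 and 69.1 FPKM. VIT_13s0067g02300 was listed at 0 in both early columns of Barbera and in Refosco touching berries. VIT_16s0022g00960, VIT_19s0090g01370 and VIT_14s0081g00030 complete the 20 and are described with the abundant members.

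**Figure D1:**
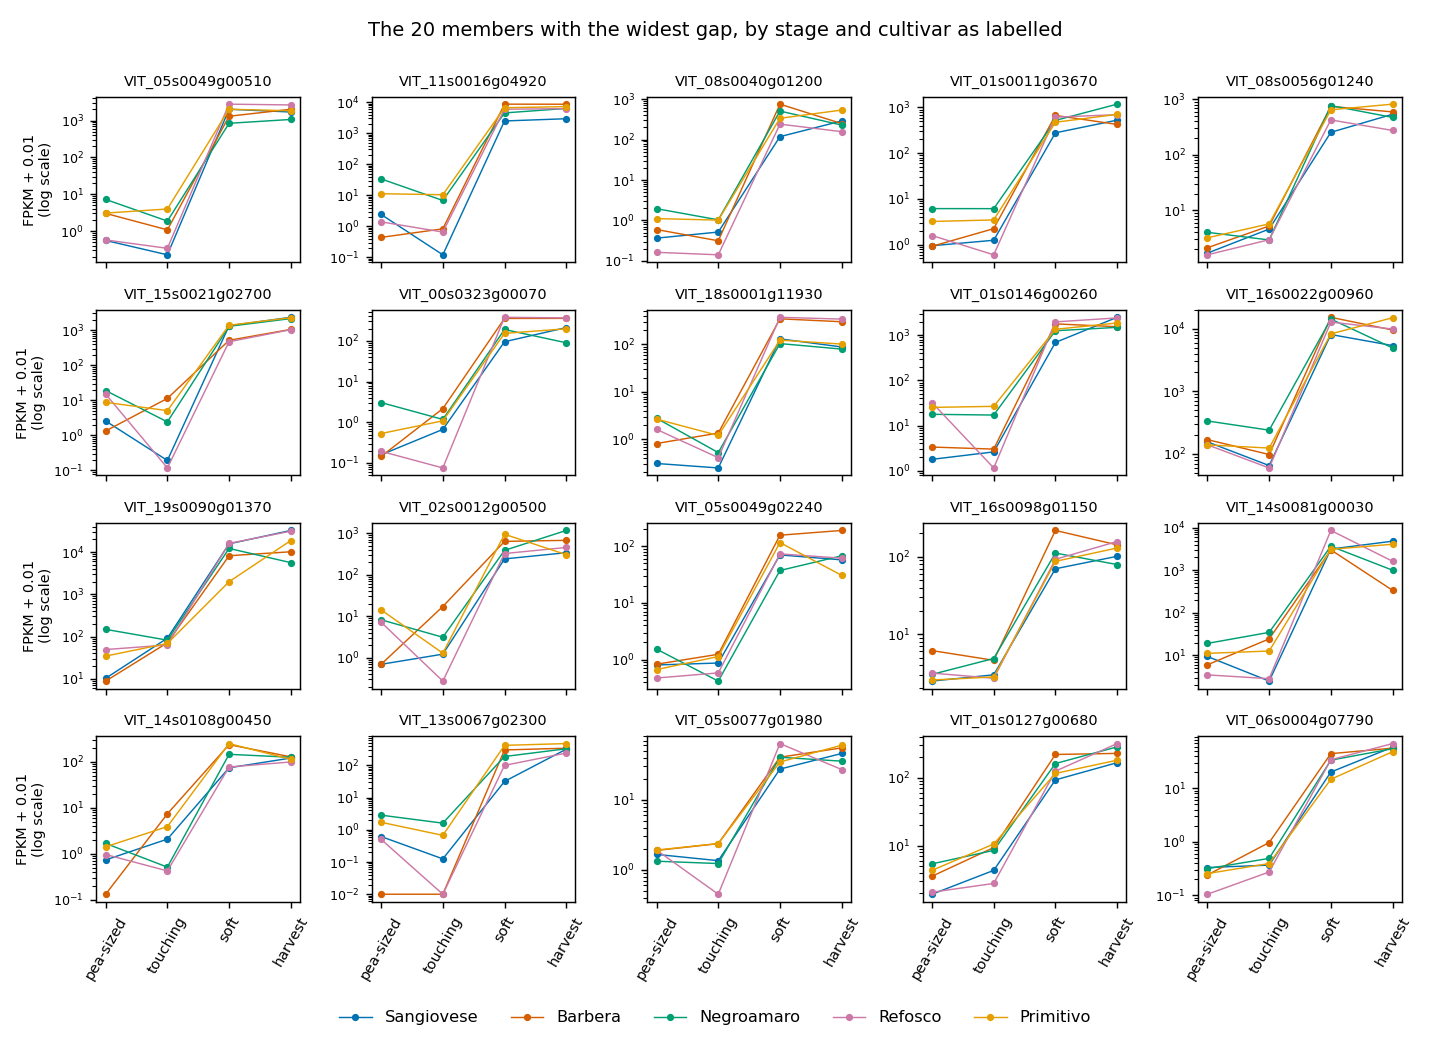
Levels of the 20 members with the highest ranking ratio, in FPKM plus 0.01 on a log scale, against the 4 stages, with one line for each cultivar as labelled. Every line rises between touching and soft berries, as the rule required, and soft and harvest values mostly lie closer together than that. Wide gaps between soft and harvest stand in Sangiovese for VIT_13s0067g02300 and in Barbera for VIT_14s0081g00030.

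The members took a small share of the transcript pool in green berries and a large one in ripening berries. Their share of the summed FPKM was 1.06% ± 0.135 in pea-sized, 1.11% ± 0.190 in touching, 13.4% ± 2.10 in soft and 16.5% ± 2.68 in harvested berries (SD, n = 5 cultivars). The median member stood at 10.4 ± 1.08, 14.7 ± 2.80, 109.1 ± 12.4 and 117.8 ± 10.5 FPKM at the same stages, while the median gene tested stood at 14.4 ± 0.0755, 14.2 ± 0.466, 10.8 ± 0.521 and 9.76 ± 0.492 FPKM. A few members made most of the share: the 10 most abundant held 10.3% ± 2.15 of the total in soft and 12.1% ± 2.61 in harvested berries, and the other members 3.07% ± 0.302 and 4.43% ± 0.227. From soft to harvested berries the other members' share was higher in every cultivar as labelled. The lowest harvest share, 4.06% in Refosco, was above the highest soft share, 3.47% in Barbera. A share also depends on the column total. The summed FPKM of all members rose as labelled in Sangiovese, Negroamaro and Refosco and fell in Barbera and Primitivo. In Barbera it went from 144186 to 118053 FPKM, while the share of all members went from 13.2% to 14.7%.

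**Figure D2:**
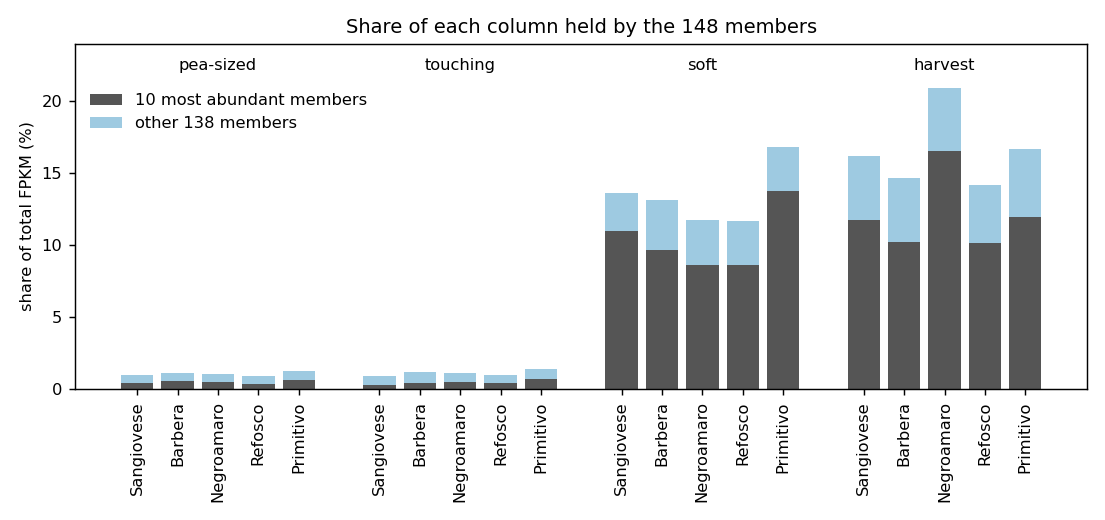
Share of the total FPKM of each of the 20 columns held by the members, in percent, with the 10 most abundant members in grey and the others in blue. The shares lie between 0.905% and 1.40% in the 10 early columns and between 11.7% and 21.0% in the 10 late ones.

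The late median was below 100 FPKM for 66 members, and the 10 most abundant had late medians from 2295 to 29403 FPKM. The most abundant was the entry that joins VIT_08s0056g01600 and VIT_08s0056g01610, with 31582, 30303, 36536, 19992 and 68828 FPKM in soft berries and 27295, 23354, 82980, 19241 and 28504 FPKM at harvest. Its early values ran from 819 to 3615 FPKM, so it was abundant in green berries too. The 2 highest late values were those of Primitivo soft and of the column labelled Negroamaro harvest. VIT_01s0010g02030 followed, with 7387 to 40622 FPKM in late columns, against 415 to 1563 FPKM in early ones. An entry that joins tags, or a gene with near-identical copies, may share reads with its copies, so its level is uncertain; 3 members join 2 tags.

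The other abundant members differed in how low they had been. VIT_16s0022g00960 ran from 4943 to 15268 FPKM in late columns, against 59.4 to 335 FPKM in early ones. VIT_19s0090g01370 ran from 1988 FPKM in Primitivo soft berries to 32428 FPKM in Sangiovese harvested berries, against 8.87 to 149 FPKM in early columns. VIT_14s0081g00030 ran from 337 to 8616 FPKM in late columns, against 2.48 to 34.7 FPKM in early ones. Its late extremes are the single columns of Barbera at harvest and Refosco when soft. VIT_07s0005g00660, VIT_10s0116g00570 and VIT_16s0022g01770 had late medians of 3914, 2547 and 2295 FPKM, against early medians of 435, 55.3 and 158 FPKM.

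The step from pea-sized to touching berries, before softening, was tested over all genes, since the rule bounds the highest of the early values but not the order of the 2 stages. With limma on log2(FPKM + 1), with cultivar in the model and an adjusted p under 0.05, 42 of the 148 members were higher in touching berries and 5 were lower. Over the 18207 genes tested 22.9% were called, 12.4% higher and 10.5% lower, so the members were called higher at more than double that share, 28.4%, and called lower at a smaller one, 3.38%. The median log2 change was 0.26 for the members and 0.03 for all genes tested. Of the 42 that rose, 39 did so in 5 of 5 cultivars and 15 at least 2-fold on the log2(FPKM + 1) scale. The added 1 makes changes of low genes look smaller. Without Barbera 24 members were called higher and 4 lower, beside 6.79% and 6.43% of all genes, and without Primitivo 29 and 2, beside 8.17% and 7.55%.

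The largest rise before softening on the log2(FPKM + 1) scale was that of VIT_18s0089g00410, on chromosome field 18. Its values in touching berries were 23.5, 37.7, 27.4, 19.6 and 52.6 FPKM, against 2.12, 8.32, 2.29, 2.65 and 4.35 FPKM in pea-sized berries, and the stages did not overlap. The log2 change was 2.79 (SE 0.30, limma adjusted p = 1.92e-05). Its later levels were 83.0 to 174 FPKM in soft and 102 to 248 FPKM in harvested berries. VIT_18s0001g06060 had 3.18, 13.6, 2.04, 0.566 and 19.8 FPKM in touching berries, against 0.143, 0.00831, 0.532, 0.0442 and 0.907 FPKM in pea-sized ones. Each cultivar was higher when touching, although Refosco touching berries lay below Primitivo pea-sized berries, and the log2 change was 2.15 (SE 0.46, adjusted p = 0.00394). With 0.1 FPKM added in place of 1 its change was 3.80, above the 3.10 of VIT_18s0089g00410, and with 5 added it was 1.02, against 2.03, so the order depends on the value added.

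The next 3 rises are given on the same scale. The entry joining VIT_18s0075g00340 and VIT_18s0075g00350 stood at 4.00 to 9.63 FPKM in touching berries, against 0.222 to 2.20 FPKM in pea-sized ones (log2 change 1.95, SE 0.25, limma adjusted p = 7.34e-05). VIT_04s0008g06000 stood at 7.60 FPKM in Refosco and 30.8 to 45.3 FPKM in the other touching columns, against 4.38 to 7.64 FPKM in pea-sized berries, so that the Refosco value overlapped (log2 change 1.88, SE 0.29, adjusted p = 0.000419). VIT_08s0040g01950 stood at 12.2 to 47.6 FPKM in touching berries, against 5.64 to 6.77 FPKM in pea-sized ones (log2 change 1.74, SE 0.20, adjusted p = 3.83e-05). In all 3, Barbera had the highest touching value. The change of the joined entry moved to 3.02 with 0.1 FPKM added and to 0.88 with 5 added.

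The 5 members that fell before softening each fell in 5 of 5 cultivars. That they later stood above their first level was set by the rule, as for all members. VIT_19s0090g01340, on chromosome field 19, had 33.4, 64.0, 87.1, 23.5 and 117 FPKM in touching berries, against 435, 588, 420, 169 and 341 FPKM in pea-sized ones. The groups did not overlap, and the log2 change was -2.69 (SE 0.29, limma adjusted p = 1.77e-05). It then stood at 2628 to 14628 FPKM in soft berries, which makes it one of the 10 most abundant members. VIT_14s0083g00940 had 1.06 to 1.38 FPKM in touching berries, against 2.90 to 8.82 FPKM in pea-sized ones (log2 change -1.45, SE 0.30, adjusted p = 0.00353), and 15.0 to 41.2 FPKM in soft berries. Its touching values were close together in all cultivars, and the change was -1.95 with 0.1 FPKM added and -0.71 with 5 added.

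The other 3 falls were less secure. VIT_08s0007g06040 changed by -1.75 on the log2 scale (SE 0.59, limma adjusted p = 0.0446), and with each cultivar left out in turn its adjusted p lay between 0.0743 and 0.0946. VIT_14s0060g02300 changed by -1.10 (SE 0.37, adjusted p = 0.0432), with adjusted p between 0.0504 and 0.191 without Barbera, Negroamaro, Refosco or Primitivo. VIT_11s0016g05530 changed by -0.84 (SE 0.22, adjusted p = 0.0132), with 0.0537 without Sangiovese and 0.0871 without Primitivo.

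Cultivars differed in how far the members had moved when berries touched. The change from pea-sized to touching berries was set against the change from pea-sized to the mean of soft and harvested berries, both on the log2(FPKM + 1) scale. The median member had completed 16.1% of that rise in Barbera, 12.9% in Primitivo, 12.3% in Sangiovese, 9.32% in Negroamaro and -0.103% in Refosco. With the 2 harvest columns exchanged it was 12.8% in Primitivo and 9.87% in Negroamaro. In touching Refosco berries 74 of the 148 members were higher than in pea-sized ones, beside 51.5% of all genes tested. In the other cultivars the share of members that were higher lay between 68.2% and 78.4%, beside 50.7% to 57.7% of all genes tested. These are descriptions: with one value per cultivar and stage the difference between cultivars was not tested, and the rule limited how high any touching value could be.

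**Figure D3:**
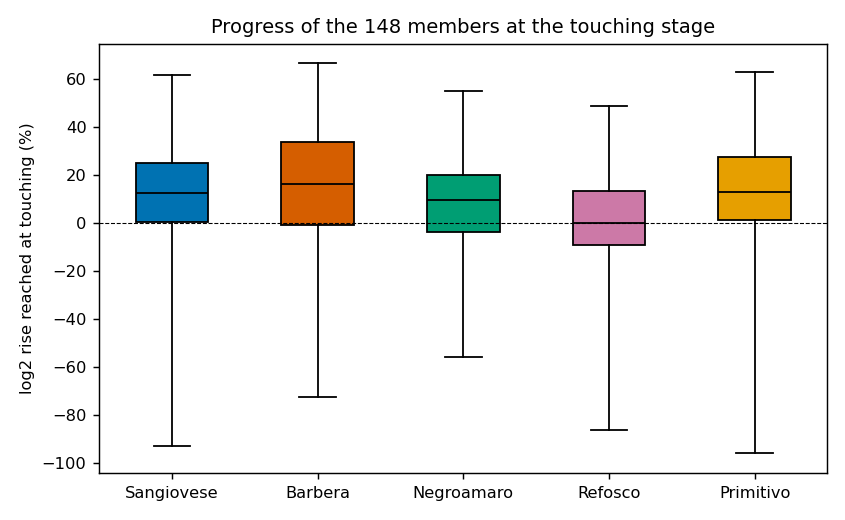
Percentage of the log2 rise from pea-sized to late berries that the members had reached at the touching stage, by cultivar as labelled. Boxes span the quartiles with the median as a line, and whiskers span all members. The median is 16.1% in Barbera and -0.103% in Refosco.

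Single columns often set the ranking ratio. The highest early value was that of Barbera touching berries for 48 members and of Primitivo touching berries for 32, and that of Refosco touching berries for 4. The lowest late value was that of Sangiovese soft berries for 41 members and of Refosco harvested berries for 21, and that of Sangiovese harvested berries for 4. These columns entered the rule, so the counts say which values limited the list.

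After softening the members were held within 2-fold in their stage medians by the rule, which did not fix the direction of change. It did keep out genes that fell back to their early level at harvest. In harvested against soft berries 33 members were called higher and 10 lower with limma at an adjusted p under 0.05, where 39.5% of all genes were called, 14.9% higher and 24.5% lower. The members thus went up more often than down, at 22.3% against 6.76%, while over all genes falls were more frequent. No such limit held for all genes, so this contrast was set in part by the choice of members. With columns scaled to equal total FPKM the members gave 53 rises and 5 falls, beside 28.4% and 14.7% of all genes. That scaling moved the median change of all genes to 0.12 at this step, against -0.08 as deposited, and the members' median to 0.37, against 0.12. At the earlier step it moved the median of all genes to -0.11, against 0.03 as deposited, and gave 30 rises and 6 falls of members.

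The 5 largest rises after softening were modest in size, which the rule set in part by holding the stage medians within 2-fold. VIT_14s0083g00940, which had dipped before softening, had 44.2, 135, 54.9, 75.5 and 41.3 FPKM at harvest, against 15.0, 41.2, 31.2, 36.8 and 16.8 FPKM in soft berries. The lowest harvest value lay just above the highest soft one, and the log2 change was 1.25 (SE 0.30, limma adjusted p = 0.00485). VIT_06s0004g07790 had 48.3 to 68.6 FPKM at harvest, against 14.7 to 44.5 FPKM in soft berries (log2 change 1.03, SE 0.20, adjusted p = 0.00105), also without overlap. VIT_11s0016g04790 had 108 to 277 FPKM at harvest, against 54.1 to 93.0 FPKM in soft berries (log2 change 1.02, SE 0.21, adjusted p = 0.00151).

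VIT_11s0016g05600 rose in 4 of 5 cultivars as labelled, with 61.3 to 161 FPKM at harvest, against 43.3 to 62.1 FPKM in soft berries (log2 change 1.00, SE 0.22, limma adjusted p = 0.00229). Its only lower harvest value was that of the column labelled Primitivo. VIT_13s0067g02300 had 242 to 475 FPKM at harvest, against 31.7 to 419 FPKM in soft berries, the low value being that of Sangiovese (log2 change 1.14, SE 0.44, adjusted p = 0.04997). Its call was at the threshold, and without Sangiovese the log2 change was 0.61 with an adjusted p of 0.225; without Negroamaro, Refosco or Primitivo the adjusted p lay between 0.0503 and 0.153.

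The 5 largest falls after softening were of unequal certainty. VIT_11s0016g02380 had 13.2, 63.0, 62.6, 8.36 and 74.8 FPKM at harvest, against 13.4, 277, 113, 98.7 and 334 FPKM in soft berries. Each cultivar was lower at harvest, by little in Sangiovese, and the log2 change was -1.71 (SE 0.55, limma adjusted p = 0.0231; 0.0668 to 0.139 without Barbera, Refosco or Primitivo). VIT_01s0026g02620 had 32.6 to 157 FPKM at harvest, against 96.6 to 358 FPKM in soft berries (log2 change -1.36, SE 0.38, adjusted p = 0.0112). VIT_00s0322g00030 had 115 to 172 FPKM at harvest, against 183 to 364 FPKM in soft berries (log2 change -0.80, SE 0.15, adjusted p = 0.000931), and these stages did not overlap. VIT_14s0066g01600 and VIT_04s0008g06000 changed by -0.90 and -0.79 (limma adjusted p = 0.0301 and 0.0460), each lower in 4 of 5 cultivars as labelled. Without Sangiovese, Barbera, Negroamaro or Refosco their adjusted p lay between 0.0631 and 0.177 and between 0.0501 and 0.160. With columns scaled to equal total FPKM it was 0.103 and 0.170.

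Put together, the 2 tested steps sort the members into a few courses. In 12 members both steps were rises, in 4 a rise before softening was followed by a fall after it, and in 2 a fall before softening was followed by a rise. For 76 members a change was called at neither step. Over all genes tested 22.9% were called at the earlier step and 39.5% at the later one. The 2 steps were not sorted together over all genes, so these counts are not read as particular to the members. VIT_05s0020g04080 is an example of a climb at both steps, with 312 to 356 FPKM in pea-sized, 393 to 477 in touching, 812 to 1172 in soft and 1508 to 2042 in harvested berries. Its 4 stages did not overlap in any pair, which the rule had set for early against late stages but not within them. VIT_01s0011g05810 climbed likewise at a much lower level, with 1.88 to 2.77, 3.25 to 4.77, 9.54 to 12.8 and 19.95 to 27.0 FPKM at the same stages.

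**Figure D4:**
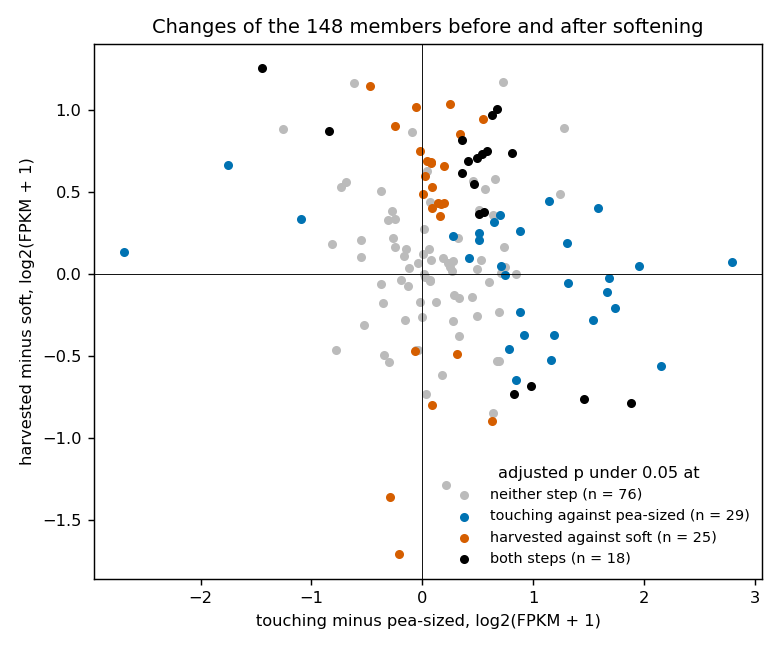
Log2 changes of the 148 members in touching against pea-sized berries (horizontal) and in harvested against soft berries (vertical), with one point per member. Colours mark the steps at which limma called a change: neither for 76 members, the earlier step alone for 29, the later step alone for 25 and both for 18. Over all genes tested 22.9% were called at the earlier step and 39.5% at the later one.

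Late levels varied over the 10 columns, which hold 5 cultivars at 2 stages. The highest of the 10 late values was a median of 3.20 times the lowest, from 1.46 times in VIT_14s0066g01720 to 110 times in VIT_00s0225g00230. VIT_14s0066g01720 ran from 54.1 to 78.8 FPKM in late columns, against 20.9 to 31.1 FPKM in early ones. VIT_00s0225g00230 ran from 2.48 FPKM in Refosco soft berries to 273 FPKM in the column labelled Primitivo harvest, against 0 to 0.479 FPKM in early columns.

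A difference between cultivars was tested in the 10 late columns with stage in the model. As labelled, the span of the 5 cultivar means on the log2 scale had a median of 0.86 over the members and 0.65 over all genes tested. As labelled, limma's F test called 1 of the 148 members, 0.676%, beside 0.873% of all genes tested, and 28 members had an unadjusted p under 0.05. After an exchange of the 2 harvest columns in doubt it called 21 members, 14.2%, beside 10.9% of all genes, and with both left out it called 0 members and 0 genes, at 39 members with an unadjusted p under 0.05. The share of members called was thus near that of all genes in each case. Counts at an unadjusted p were not made over all genes tested, so nothing is read from them. The exchange was chosen because it brings the soft and harvest deviations of a cultivar together over these same genes. Their disagreement within cultivars is the error of this test, so more calls and smaller p-values after the exchange were built in. The same holds for the contrasts of single cultivars below. The exchanged calls therefore say nothing on whether the labels are right. The rule ranks by the lowest late value against the highest early one, so it limits how far a late value can fall toward the early ones. It sets no lowest level for a single late column and no limit on how far a cultivar can exceed the others.

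By cultivar mean, Barbera was highest in 43 members, 29.1% beside 21.4% of all genes tested, and Sangiovese was lowest in 47, 31.8% beside 19.2%, both as labelled. With the 2 harvest columns exchanged, Barbera was highest in 32 members, 21.6% beside 19.3%, fewer than the 36 of Negroamaro, and Sangiovese was lowest in 42, 28.4% beside 18.3%. The lead of Barbera thus depended on these columns.

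Each cultivar was also set against the mean of the other 4, with limma at an adjusted p under 0.05. As labelled, Refosco was higher in 2 members and lower in 0, beside 0.341% and 0.478% of all genes, and Sangiovese was higher in 0 and lower in 2, beside 0.632% and 0.467%. Barbera was higher in 1 and lower in 0, beside 0.28% and 0.324%. For Negroamaro and for Primitivo 0 members were called either way as labelled, beside 0.0165% higher and 0.0165% lower for Negroamaro and 0.00549% higher and 0.0165% lower for Primitivo, although 10 and 5 members were higher and 3 and 14 lower at an unadjusted p under 0.05. After the exchange Negroamaro was higher in 6 and lower in 6, beside 3.02% and 1.72%, and Primitivo was higher in 3 and lower in 3, beside 1.35% and 1.72%. Refosco was then higher in 7 and lower in 7, beside 1.65% and 4.33%, Sangiovese higher in 2 and lower in 7, beside 3.4% and 1.93%, and Barbera higher in 3 and lower in 2, beside 1.8% and 2.05%. Each count is of a few members, and the shares were not tested against each other. The counts at an unadjusted p have no count over all genes beside them, so nothing is read from them.

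The member called by the F test as labelled was VIT_18s0001g11930, which was high in a pair of cultivars. It had 131, 348, 105, 374 and 124 FPKM in soft berries and 88.7, 302, 80.0, 343 and 102 FPKM at harvest. Barbera and Refosco exceeded the other 3 cultivars at both stages without overlap. The cultivar means on the log2 scale spanned 1.96 (limma adjusted p = 0.0128), and Refosco lay 1.37 above the mean of the others (SE 0.11, adjusted p = 0.0129). Without Barbera the adjusted p of the F test was 0.111, without Refosco 0.0695 and with the 2 doubtful columns left out 0.0908.

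With the 2 harvest columns exchanged, the 5 called members with the widest span of cultivar means were VIT_03s0063g01290, VIT_05s0020g04570, VIT_02s0025g04340, VIT_14s0066g00700 and VIT_04s0044g01230. Their exchanged p-values carry the limit given above, since the exchange was chosen to make the soft and harvest columns alike. VIT_03s0063g01290 had 17.8, 563, 130, 6.96 and 19.7 FPKM in soft berries, and at harvest, as labelled, 11.4, 344, 12.4, 6.05 and 564 FPKM. Barbera was high at both stages, and the second high harvest value stood in the column labelled Primitivo while the second high soft value was that of Negroamaro. The span was 5.88 on the log2 scale both ways (limma adjusted p = 0.0123 exchanged and 0.304 as labelled).

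VIT_02s0025g04340 showed the same crossing. It had 614 FPKM in Negroamaro soft berries and 47.1 to 108 FPKM in the other soft columns, and at harvest 1218 FPKM in the column labelled Primitivo and 134 to 241 FPKM in the others. Negroamaro lay 2.91 above the mean of the others exchanged (SE 0.38, limma adjusted p = 0.0156) and 0.93 above it as labelled (SE 1.00, adjusted p = 0.871). Its span was 3.16 exchanged (adjusted p = 0.0339) and 1.89 as labelled (adjusted p = 0.673). VIT_05s0020g04570 had 41.0 FPKM in Primitivo soft berries and 22.6 FPKM in the column labelled Negroamaro harvest, the lowest value of each stage, and its span was 3.64 exchanged (adjusted p = 0.0267) and 1.87 as labelled (adjusted p = 0.844). VIT_14s0066g00700 and VIT_04s0044g01230 had spans of 2.87 and 2.85 exchanged (adjusted p = 0.0373 and 0.0327) and of 2.57 and 2.85 as labelled (adjusted p = 0.401 and 0.112), and in VIT_04s0044g01230 Barbera had the highest value at both stages.

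**Figure D5:**
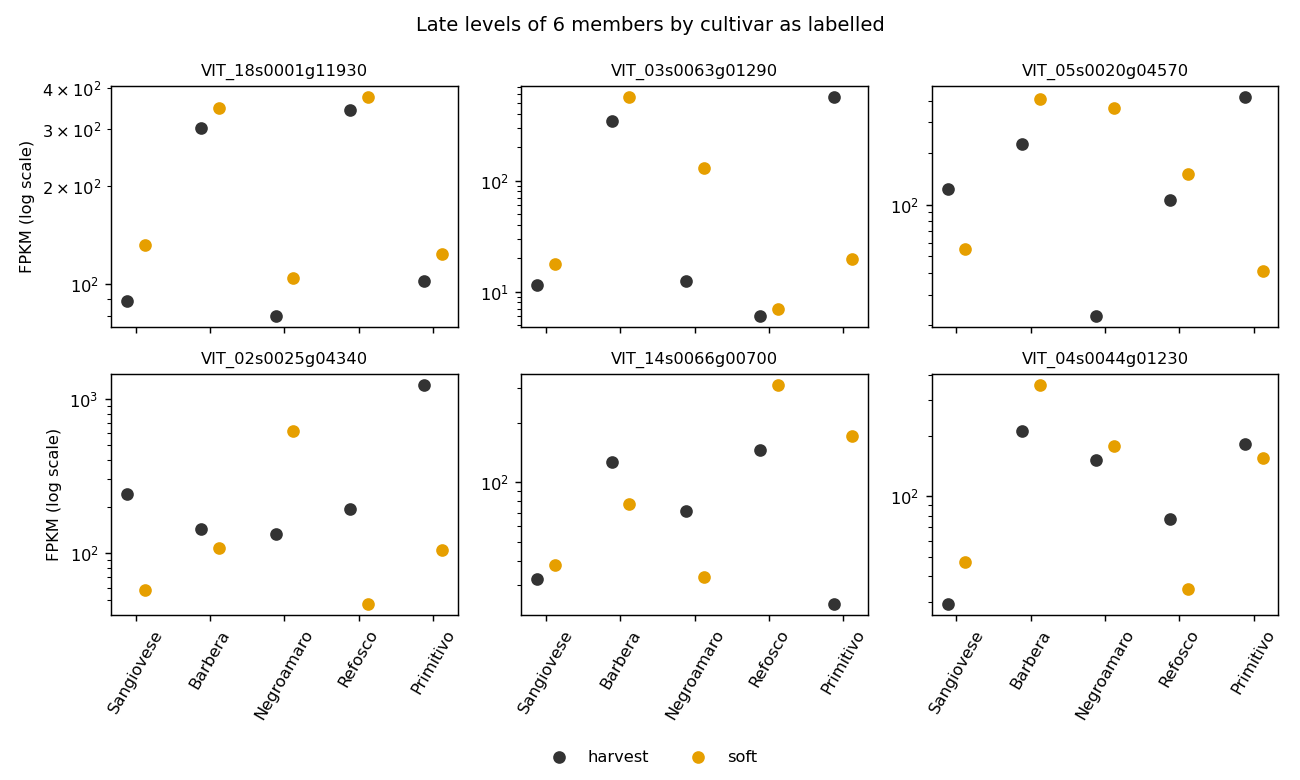
Levels in FPKM, on a log scale, of 6 members in harvested (dark) and soft (orange) berries of the 5 cultivars as labelled. In VIT_18s0001g11930 the soft and harvest points of a cultivar lie together, whereas in VIT_02s0025g04340 the high soft point is that of Negroamaro and the high harvest point that of Primitivo.

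The members were spread over the genome. They lay on 18 of the 19 numbered chromosome fields, with 8 on unplaced sequence. Chromosome field 14 held 16 members, 10.8% of them, beside 6.35% of the genes tested, and field 12 held 0 members, beside 4.50% of the genes tested. Fields 1 and 8 held 12 each, 8.11% of the members, beside 5.84% and 6.26% of the genes tested. Fields 2, 7 and 16 held 11 each, 7.43% of the members, beside 3.93%, 5.70% and 3.85% of the genes tested. No test was made of these shares.

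Some members were neighbours. By tag number among tested genes of a scaffold field, 5 pairs of members were adjacent. The number of pairs to be had by position alone was not computed, so the count is not called low or high. VIT_01s0127g00450 and VIT_01s0127g00460 were abundant together, with late medians of 1010 and 910.2 FPKM and early medians of 330.0 and 281.0 FPKM, and both were called higher at both tested steps. VIT_09s0018g01370 with VIT_09s0018g01390, and VIT_00s0125g00210 with VIT_00s0125g00220, were low pairs with late medians of 11.8 to 15.6 FPKM. The pairs VIT_19s0015g01300 with VIT_19s0015g01310 and VIT_02s0234g00100 with VIT_02s0234g00110 were unequal, with late medians of 137.5 and 17.8 FPKM and of 84.5 and 30.6 FPKM. VIT_10s0116g00550 and VIT_10s0116g00570 had 1 tested gene between them and late medians of 348.2 and 2547 FPKM. Sequences were not used here, and neighbours with near-identical sequence may share reads.

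The genes beside the members also followed ripening somewhat more often than others. Of 281 tested neighbours that were not members, 24 had every late value above every early one, 8.54%, beside 3.95% of all tested genes outside the members. This is a description of the table, without a test.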

How the data were processed

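The deposited table holds FPKM values that the authors computed, and its name calls them means, so each column was taken as the authors' mean of one cultivar and stage. Per the submitters' processing notes, the tools included TopHat2 (2.0.6) and Cufflinks (2.0.2), with no role given; no build is given in the sources at hand. Libraries were non-directional, per the labels' protocols, so a gene and an antisense partner cannot be told apart. Depth is unknown, so no counting interval was computed. The column totals ran from 787405 to 1096120 FPKM.

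The members and gene lists were chosen with earlier results of these data known. Lists fixed by functional name could not be applied, because no tag matched a name. Tests used log2(FPKM + 1). Genes averaging 1 FPKM or more entered, 18207 in all, a filter which all 148 members passed through their late values. R 4.3.3 and limma 3.58.1 fitted stage and cultivar to 20 columns (12 residual degrees of freedom), and cultivar and stage to the 10 late columns (4), with a mean-variance trend, Benjamini-Hochberg adjustment over all genes and two-sided tests. Both fits hold cultivar as a term. P-values of the steps set a change against its unevenness over cultivars and stages. P-values between cultivars set a difference against the disagreement of soft with harvested berries, with the 2 stages of a cultivar serving as its replicates. All berries came from a single vineyard and season. The fits were tested on simulated data. Genes named are the first 20 members, the 10 most abundant, the 5 largest called changes in each direction and step, the called or widest between cultivars, neighbours, and rows beside the end of the list; the 2 examples of a climb at both steps and the extremes of the late spread were chosen after their values were seen. Python 3.11.15 drew the figures.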

Additional observations from a re-analysis of the deposited data

Results flagged for a closer look

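For the first 20 members and 4 measures of the columns, the 5 cultivar values of a stage were searched for a single value far from the others by Dixon's criterion. It marked 4 of 56 groups, 7.14%, and chance marks about 1 in 20. VIT_14s0081g00030 stood at 8616 FPKM in Refosco soft berries, against 3013 to 3665 FPKM in the other soft columns. VIT_05s0049g02240 stood at 190.3 FPKM in Barbera harvested berries, against 30.7 to 67.8 FPKM in the others. VIT_16s0098g01150 stood at 217.8 FPKM in Barbera soft berries, against 69.8 to 111 FPKM in the others. The 10 most abundant members held 16.5% of the total FPKM in the column labelled Negroamaro harvest, against 10.1% to 11.98% in the other harvest columns; the joined entry of VIT_08s0056g01600 and VIT_08s0056g01610 stood at 82980 FPKM there.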

How the results depend on the processing

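No paired analysis was possible because the columns are means and carry no replicate number; cultivar was a term in the stage fits. As deposited 47 members were called in touching against pea-sized berries, 43 in harvested against soft berries and 1 between cultivars. A list of the first 100 ranks gave 27 and 24 calls at the 2 steps, and one of 300 ranks gave 85 and 119. Leaving out a cultivar from the fit, or from the choice of members, gave 28 to 52 calls at the earlier step, 31 to 43 at the later one and 0 to 2 between cultivars. Between cultivars there were 0 calls without the 2 doubtful harvest columns, beside 0% of all genes. With these columns exchanged there were 21, 14.2% of the members beside 10.9% of all genes. When all 20 columns entered the fit there were 10, 6.76% of the members beside 16.3% of all genes. More calls after the exchange were built in, because it was chosen from the likeness of soft and harvest columns over these genes. Pseudocounts of 0.1 and 5, other filters, other scalings and robust hyperparameters kept each of the 3 counts within 1.5 times. Contrasts of single cultivars, the progress at touching and the highest and lowest cultivar with these columns exchanged were chosen after seeing the data. The exchange turned signs of single-cultivar contrasts: Negroamaro against the others was 3.17 exchanged and -0.21 as labelled for VIT_03s0063g01290. Of the 5 largest called changes in each direction at the 2 steps, and the gene called between cultivars, none turned its sign in the alternatives run. Calls were lost in 16 of 150 repeats for genes named at the earlier step, in 25 of 150 at the later one and in 4 of 16 for the gene between cultivars; the cause was not tested. Because the values are means of unknown depth, small changes of low genes cannot be judged.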
